A study of Mus musculus with 19 samples.

Results

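Layer 4 of the mouse primary somatosensory cortex (S1) was compared with upper layer 5, the segment directly beneath it, in 3 RNA-seq libraries. Samples B1 and B2 held mostly layer 4 and sample C held mostly upper layer 5. They are 3 of the 19 samples of the series, and 3 of the 7 S1 libraries, lettered by depth. Segment A lay above layer 4 and D held mostly lower layer 5, while E was mostly layer 6 and F layer 6b. A gene was described as set apart when its FPKM in C lay above both B1 and B2 or below both, and when the gap from C to the nearer of them exceeded the gap between B1 and B2. FPKM are fragment counts scaled to the length of the exon model and to the total of mapped fragments, and gaps were taken on the scale of log2(FPKM + 0.1). Of 24130 genes listed in at least 1 S1 library, 11409 had an interval narrow enough to be tested, and 3846 of these (33.7%) were set apart.

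The mice were male C57BL/6J mice aged 56 days, from 2 litters of 4. RNA in B1 and in B2 was pooled from the 4 mice of a litter each, whereas C, like A, D, E and F, was pooled from all 8 mice. Polyadenylated RNA was taken from segments that had been cut by hand under a microscope from coronal slices, so a segment could hold tissue of the adjoining layer. Layer 4 thus had n = 2 and upper layer 5 n = 1, and a difference between the layers cannot be told apart from a difference between library C and the other libraries. Another 12 samples came from other dissections of cortex, dorsal and lateral, and were not used here.

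Layer 4 is the main target of thalamic axons in S1, and its spiny stellate and star pyramidal neurons send their axons mostly within the cortex and into the layers above. Layer 5 holds pyramidal neurons with thick apical dendrites and long axons that reach the brainstem, spinal cord, striatum or other cortical areas. The transcription factor Rorb is a standard marker of layer 4 neurons, and Fezf2 and Bcl11b specify the layer 5 neurons that project below the cortex.

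Depth was estimated at 48900000 fragments in B1, 74900000 in B2 and 41600000 in C. The median 95% interval of a tested gene spanned 13.3% of its FPKM in B1, 10.8% in B2 and 13.5% in C. These intervals cover the estimate within a library and hold no variation between mice. The median gap between B1 and B2 was 0.29 on the log2 scale, and 5% of genes had a gap of over 1.07. For C the median gap was 0.353 to B1 and 0.256 to B2. By this measure upper layer 5 lay nearer to B2 than the other layer 4 library, B1, did. The layer 4 libraries also differed in mean insert length (239 nt in B1 and 193 nt in B2, against 184 nt in C) and in the part of all FPKM taken by the mitochondrial genome (7.76%, 18.2% and 9.79%). Across genes, the difference B2 minus B1 had a Spearman correlation of -0.558 with GC content, C minus B1 one of -0.541 and C minus B2 one of -0.048, as a description over 10801 genes that share these libraries. GC content thus moved with the gap between the layer 4 libraries, and its part in the results was not tested beyond the corrected counts given below.

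Sample C was higher than both layer 4 libraries at 3102 of the genes set apart and lower at 744. As shares of the genes tested, these are 27.2% and 6.52%, and 33.7% in all. C lay between B1 and B2 at 3817 genes (33.5%), and at 3746 genes it lay outside them by less than their gap. These numbers are close to the 3846 set apart. If B1, B2 and C were interchangeable, the rule would give equal shares to these outcomes. The number of genes set apart is thus by itself no measure of a difference between the layers. The excess of higher genes moved with the scale of the libraries. The median gene was 0.17 higher in C than in the mean of B1 and B2 on the log2 scale. After the libraries were rescaled by the median of ratios, which sets this shift to 0, 1671 genes were set apart as higher and 1551 as lower (14.6% and 13.6% of genes tested), so the share of higher genes among those set apart went from 80.7% to 51.9%. Removal of the trend with GC content gave 1838 higher and 1873 lower. A direction is therefore given for a gene group with its count as deposited and its count after rescaling. Counts with the GC trend removed are added below mainly for channel, receptor, axon guidance, cadherin and transcription factor lists. There the excess of higher genes shrank or was lost. It also shrank elsewhere, to 19 higher and 1 lower layer 5 markers, 11 and 0 citrate cycle, 6 and 2 glycolysis and 5 and 0 axonal cytoskeleton genes. Cholesterol enzymes went to 8 and 0 and astrocyte markers to 0 and 6. Oligodendrocyte markers went the other way, to 14 higher and 0 lower, as did their precursor markers, to 5 and 0.

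**Figure D1:**
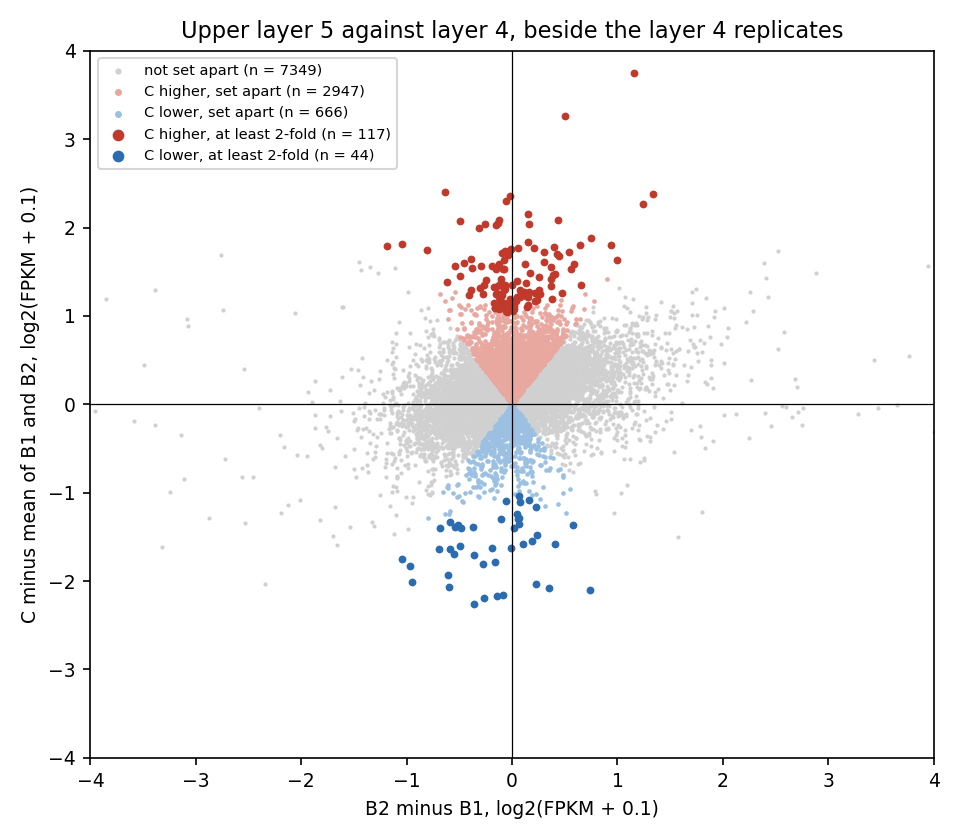
Each point is 1 of the 11123 tested genes listed in B1, B2 and C, with B2 minus B1 on the x axis and C minus the mean of B1 and B2 on the y axis, both on the log2(FPKM + 0.1) scale. Genes set apart fill the upper and lower wedges, the upper one being fuller (FPKM as deposited), and 8 genes lie outside the axes.

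A smaller set was taken by size. In it C differed by at least 2-fold from the nearer layer 4 library, and the deposited 95% interval of C overlapped that of neither B1 nor B2. This held for 195 genes, of which 134 were higher in C (1.17% of genes tested) and 61 lower (0.535%). At 34 of them a library is listed at 0. An exact 0 can be a failed estimate, so these 34 were kept apart and are given without a fold. The other 161 comprise 117 genes higher in C, with a median difference of 1.28 on the log2 scale to the nearer layer 4 library, and 44 lower, with a median of -1.35. After rescaling, all 61 lower genes and 95 of the 134 higher genes kept a difference of at least 2-fold, and 132 of the 134 were still set apart as higher. Of all genes tested, 95 were then at least 2-fold higher and 84 lower, so most of the excess of higher genes in this set was lost.

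No gene passed the limma moderated test of C against B1 and B2 at an adjusted p of 0.05. That fit has 1 residual degree of freedom and assumes that C varies like the layer 4 libraries. Its smallest adjusted p was 0.19, and 430 genes had an unadjusted p of at most 0.05 (315 higher and 115 lower in C). The 161 genes all had an adjusted p of 0.885 in limma, although 158 of them had an unadjusted p of at most 0.05, and their median SE was 0.254. With lower layer 5 (D) as a second layer 5 library, limma called 2 genes higher and 6 lower, each of them a gene with a library at 0. The adjusted p of the 161 genes in that limma fit ran from 0.063 to 0.758. D is another segment pooled from the same 8 mice as C, so that fit takes the difference between these segments for spread within layer 5. The order of the genes below is thus one of size and of separation from the layer 4 replicates, not of a passed test.

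Among genes higher in C, the largest difference at a gene with a symbol, a mean of at least 1 FPKM and a level in all 3 libraries was at Vwc2l (chr1:70772289-70931971, mm9), which encodes a secreted protein with von Willebrand factor C domains. Its FPKM was 0.370 in B1, 0.365 in B2 and 2.30 in C. The layer 4 libraries lay close together and C stood 5.10-fold above the nearer of them, on the scale of log2(FPKM + 0.1), which holds for each fold here. Lower layer 5 was near C, at 2.06 FPKM, and the other segments lay between 0.149 in A and 1.16 in F.

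Fezf2 (chr14:13174616-13178342) encodes the zinc-finger factor that specifies subcerebral projection neurons. It was at 6.06 FPKM in B1, 3.86 in B2, 26 in C and 22.5 in D. C was 4.24-fold above B1, the nearer library, and the gap between B1 and B2 was 0.64 on the log2 scale against 2.08 from C to B1. Its level was 0.980 FPKM in A, 13.3 in E and 13.8 in F, so C held the highest level of the 7 libraries. The limma difference of Fezf2 was 2.40 (SE 0.393) on the log2 scale, with an adjusted p of 0.885.

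Crym (chr7:127329894-127345625), which encodes a thyroid hormone binding protein of the cytosol, was at 4.57 FPKM in B1, 5.09 in B2 and 21.9 in C. C was 4.23-fold above B2, and the deeper libraries were higher still, at 34.3 FPKM in D, 32.5 in E and 31.0 in F. Sema3e, a secreted semaphorin that acts through Plxnd1, was at 1.84 FPKM in B1, 1.68 in B2 and 7.80 in C, a difference of 4.07-fold to B1. It too was higher below C, at 10.1 to 11.1 FPKM in D, E and F. Both genes thus stood higher in upper layer 5 than in layer 4 and higher again in each deeper segment than in C.

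The other genes higher in C that were named for their size were set apart by 3.56-fold to 3.96-fold. Tmem163, which encodes a zinc transporter of synaptic vesicles, was at 2.25 FPKM in B1, 2.03 in B2 and 9.18 in C, and reached 26.6 in F. Slc5a5, the sodium/iodide symporter, was at 2.43 FPKM in B1, 2.18 in B2 and 9.69 in C, its highest level in the 7 libraries. Tmem74, a membrane protein linked to autophagy, was at 1.22, 1.00 and 4.87 FPKM in B1, B2 and C. Egln3, a prolyl hydroxylase of the hypoxia pathway, was at 1.12, 0.878 and 4.24 FPKM in the same order. By the rule that chose these genes, neither B1 nor B2 could lie within 2-fold of C. With a mean under 1 FPKM, 2 higher genes listed in all 3 libraries had a larger difference than Vwc2l, and were chosen after their values were seen. They are Krt80, a keratin (0.114, 0.203 and 2.34 FPKM in B1, B2 and C), and n-R5s202, a 5S ribosomal RNA copy (0.0148, 0.157 and 2.21).

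**Figure D2:**
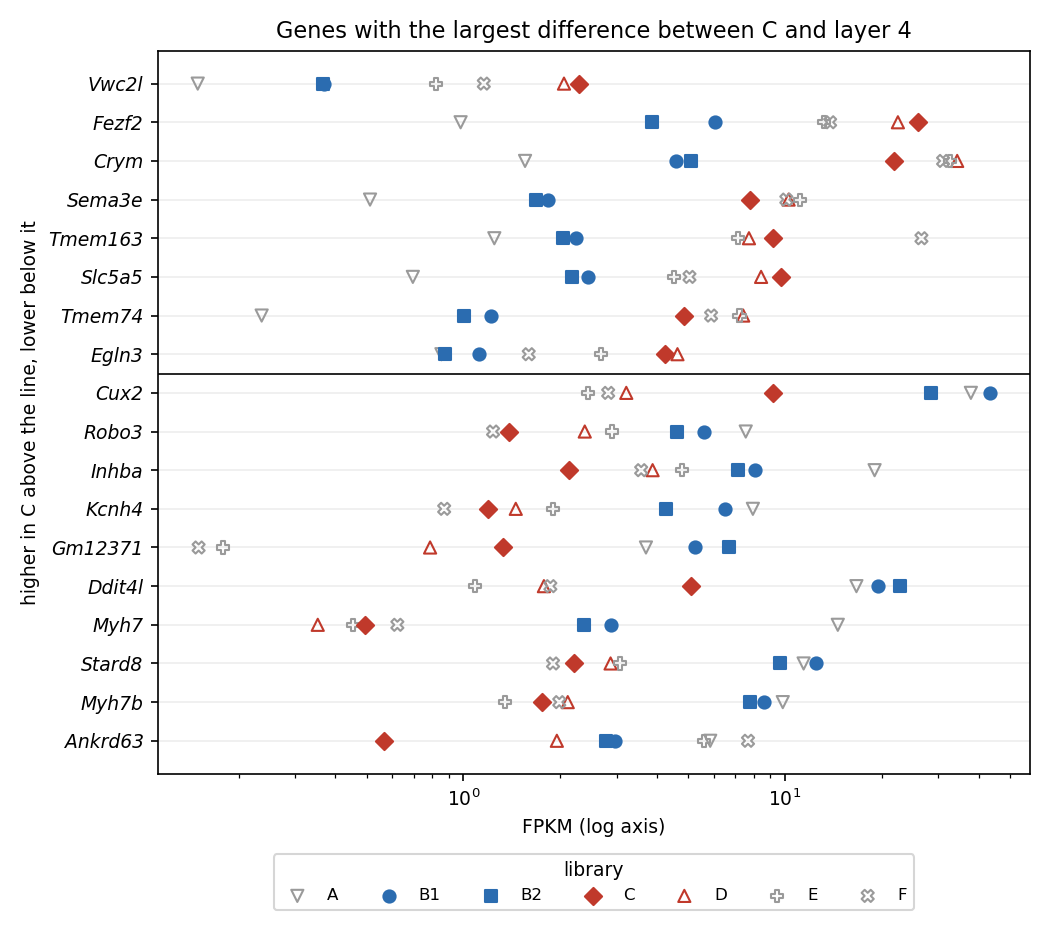
FPKM (log axis) of the 18 genes named for their size that are listed in B1, B2 and C (genes with a symbol and a mean of at least 1 FPKM), 1 gene per row, with a symbol for each of the 7 S1 libraries. Above the line C (red diamond) lies to the right of both layer 4 libraries (blue), below it to the left, and D (open red triangle) lies on the side of C in every row.

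Among genes lower in C, the largest difference under the same limits was at Ankrd63 (chr2:118524839-118529699), an ankyrin repeat gene of little known function. It was at 2.96 FPKM in B1, 2.78 in B2 and 0.567 in C, 4.32-fold below B2. Ankrd63 was not low in all deep segments, since D stood at 1.95, E at 5.61 and F at 7.68 FPKM. C was here the lowest of the 7 libraries. Without a symbol, ENSMUSG00000054714 differed more (6.99, 1.55 and 0.0463 FPKM in B1, B2 and C) and had a gap of 2.10 between B1 and B2 on the log2 scale. The limma difference of Ankrd63 was -2.15 (SE 0.24) on the log2 scale.

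Both Myh7b and Myh7, which encode slow myosin heavy chains, were lower in C. Myh7b was at 8.61 FPKM in B1, 7.80 in B2 and 1.75 in C, and Myh7 at 2.88, 2.37 and 0.495 FPKM. They were 4.27-fold and 4.15-fold below the nearer layer 4 library. In A they stood at 9.85 and 14.6 FPKM, and in D, E and F neither exceeded 2.11 FPKM. As the genes are related in sequence, reads may be shared between them.

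Stard8 (chrX:96237920-96270067), a GTPase-activating protein, was at 12.4 FPKM in B1, 9.64 in B2 and 2.20 in C, 4.23-fold below B2. Ddit4l, an inhibitor of mTOR signalling, was at 19.5 FPKM in B1, 22.8 in B2, 5.09 in C and 1.78 in D, and C was 3.77-fold below B1. The noncoding gene Gm12371 was at 5.25, 6.71 and 1.33 FPKM in B1, B2 and C and lower still below C, at 0.150 in F. Kcnh4, a potassium channel of the Elk type, was at 6.51, 4.28 and 1.19 FPKM, Inhba, the activin A subunit, at 8.05, 7.16 and 2.13, and Robo3, an axon guidance receptor, at 5.6, 4.61 and 1.38. In these 3 genes A was the highest library, while the separation of C from both layer 4 libraries was required by the rule that chose them.

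Cux2 (chr5:122308396-122499860), a homeodomain factor of upper-layer neurons, was at 43.5 FPKM in B1, 28.6 in B2, 9.17 in C and 3.21 in D. It was 37.9 in A. C was 3.09-fold below B2, with a gap of 0.60 between B1 and B2 on the log2 scale. Cux2 thus stood between the layer 4 and lower layer 5 levels in upper layer 5.

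Promoters of the genes listed in all 3 libraries were searched for the 6 letters AGGTCA on both strands (TGACCT on the other), the half-site that receptors of the Rorb family bind. Windows ran from 250 bases before to 50 bases after each start, from RefSeq (GRCm38.p6), and 72 of the 117 higher genes and 29 of the 44 lower genes had one. The letters occurred in 16.3% of all 32851 promoters, in 12 of 88 promoters of the higher genes (13.6%) and in 6 of 37 of the lower genes (16.2%), shares near that of all promoters. Of the lower genes named for their size, Ddit4l, Myh7b and Stard8 held the letters. Ankrd63, Myh7, Gm12371, Kcnh4, Inhba, Robo3 and Cux2, named by the same rule, did not. The promoters of Ddit4l, Myh7b and Stard8 are shown because they held the letters. Each is given 5′ to 3′ on the plus strand, with the letters AGGTCA or TGACCT in capitals. They lie at chr3:137623422-137623721, chr2:155610993-155611292 and chrX:99042331-99042630 in GRCm38.p6.
Ddit4l: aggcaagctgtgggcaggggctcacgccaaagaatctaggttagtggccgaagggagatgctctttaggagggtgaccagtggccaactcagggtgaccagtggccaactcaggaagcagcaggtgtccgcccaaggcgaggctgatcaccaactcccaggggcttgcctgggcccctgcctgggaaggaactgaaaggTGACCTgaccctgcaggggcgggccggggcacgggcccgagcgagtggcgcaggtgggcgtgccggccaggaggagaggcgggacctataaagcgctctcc
Myh7b: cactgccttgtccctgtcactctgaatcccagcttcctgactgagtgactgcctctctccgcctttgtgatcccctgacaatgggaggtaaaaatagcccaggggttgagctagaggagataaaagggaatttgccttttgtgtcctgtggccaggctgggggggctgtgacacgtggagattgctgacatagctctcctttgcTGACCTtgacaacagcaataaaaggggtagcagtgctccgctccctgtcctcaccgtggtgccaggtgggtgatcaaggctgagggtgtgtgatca
Stard8: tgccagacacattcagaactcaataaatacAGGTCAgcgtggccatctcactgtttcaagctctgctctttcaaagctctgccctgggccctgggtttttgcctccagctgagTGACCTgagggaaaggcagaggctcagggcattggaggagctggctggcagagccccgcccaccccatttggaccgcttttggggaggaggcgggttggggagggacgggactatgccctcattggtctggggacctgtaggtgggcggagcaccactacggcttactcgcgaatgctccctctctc
A match is a description of the letters in these windows, and the start used in cortex is not known from these data.

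The genes that a library lists at 0 are led by short RNAs and by genes whose entry is missing in some libraries. Of those named for their size, Snord32a (30.0 FPKM in C), Snord33 (11.5) and Snord99 (4.18) encode small nucleolar RNAs, at most 84 bases long and so shorter than the fragments sequenced, and all are listed at 0 in B1 and B2. Prkag1, a subunit of AMP-activated kinase, is listed at 0 in A, B1, B2, E and F and at 21.6 FPKM in C and 22.9 in D. Gss, glutathione synthetase, is listed at 0 in A, B1 and B2 and at 5.86 FPKM in C, and Ap4m1, an adaptor protein subunit, at 0 in A, B1, B2 and D and at 3.48 FPKM in C. In the other direction Gm6939 (6.12 FPKM in B1 and 4.14 in B2), Paxbp1 (3.86 and 4.95), Tagln (4.09 and 3.22) and Nkiras2 (3.80 and 2.74) are listed at 0 in C. Prkag1 and Paxbp1 switch between 0 and a level more than once across the segments, Paxbp1 being back at 5.30 FPKM in E. Tagln and Nkiras2 are listed at 0 in all of C to F and Gss at 0 only in A, B1 and B2.

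At the limit of 2-fold the values on either side were alike. Just inside it, Gm16312 stood at 0.0285, 0.0674 and 0.235 FPKM in B1, B2 and C and Prkcq at 1.34, 1.19 and 2.81. Just outside it were Parm1 (14.4, 13.4 and 28.8) and Ankrd34b (4.22, 2.86 and 8.53). In the lower direction Ptgs2 (0.955, 1.08 and 0.427) and Neurod1 (6.51, 6.81 and 3.18) lay just inside, and Acvr1c (3.36, 3.42 and 1.63) and Zfp459 (1.05, 1.32 and 0.475) just outside.

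The layer 4 marker list, written with earlier results of these data known, was set beside the label of the segments. Of its 20 genes 16 were tested, and 13 of these had their highest level in B1 (11) or B2 (2). Against this, 6 of the 16 were set apart as lower in C and 2 as higher, and 6 and 1 after rescaling, beside 6.52% and 27.2% of all genes. The median of the 16 lay 0.51 below that of all genes on the log2 scale. With the GC trend removed, 9 of the 16 were lower and 1 higher. Markers of layer 4 were thus split, with some well below the layer 4 level in upper layer 5 and others above it or not set apart from it. Genes not set apart include some below both layer 4 libraries by less than the gap between these.

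Rorb, the orphan nuclear receptor, was at 17.8 FPKM in B1, 22.1 in B2, 12.6 in C and 4.37 in D. C was 1.41-fold below B1, so upper layer 5 held most of the layer 4 level, and the larger step lay between C and D. Rspo1, a secreted activator of Wnt signalling, was at 30.1, 18.6 and 7.54 FPKM in B1, B2 and C and at 1.38 in D. With Cux2 it was the other layer 4 marker set apart by at least 2-fold, at 2.44-fold below B2.

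Cux1 was at 38.1, 33.8 and 17.2 FPKM in B1, B2 and C, and Kcnip2, a subunit of A-type potassium channels, at 87.8, 71.3 and 41.4. They were lower in C by 1.96-fold and 1.72-fold than in the nearer layer 4 library. Lmo4 was at 174, 199 and 151 FPKM, a small difference that still exceeded the gap of B1 and B2. Hsd11b1, which regenerates active glucocorticoid, went the other way, at 9.82 FPKM in B1, 11.2 in B2, 20.8 in C and 14.5 in D. Zmat4 was set apart as higher (19.6, 20.5 and 22.2 FPKM) only before rescaling, since its difference was -0.0016 on the log2 scale after it.

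At 8 layer 4 markers C was not set apart. Rora was at 18.4 FPKM in B1, 21.7 in B2 and 20.6 in C, and Plxnd1, the receptor of Sema3e, at 24.1, 16.2 and 16.4. The epithelial sodium channel subunit Scnn1a was at 2.87, 2.02 and 1.84 FPKM, and then at 0.305 in D. Kcnh5 (20.9, 12.2 and 10.8 FPKM), Unc5d (8.62, 5.54 and 4.10), Nr1d1 (53.2, 33.7 and 45.5), Ptgfrn (18.7, 14.5 and 16.4) and Kcnab3 (56.5, 41.3 and 43.3) lay between the layer 4 libraries or below them by less than their gap. In 7 of these 8 genes, all but Nr1d1, D was below C and below both layer 4 libraries, as it was for Rora (11.5 FPKM), Plxnd1 (3.57) and Kcnh5 (4.13).

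**Figure D3:**
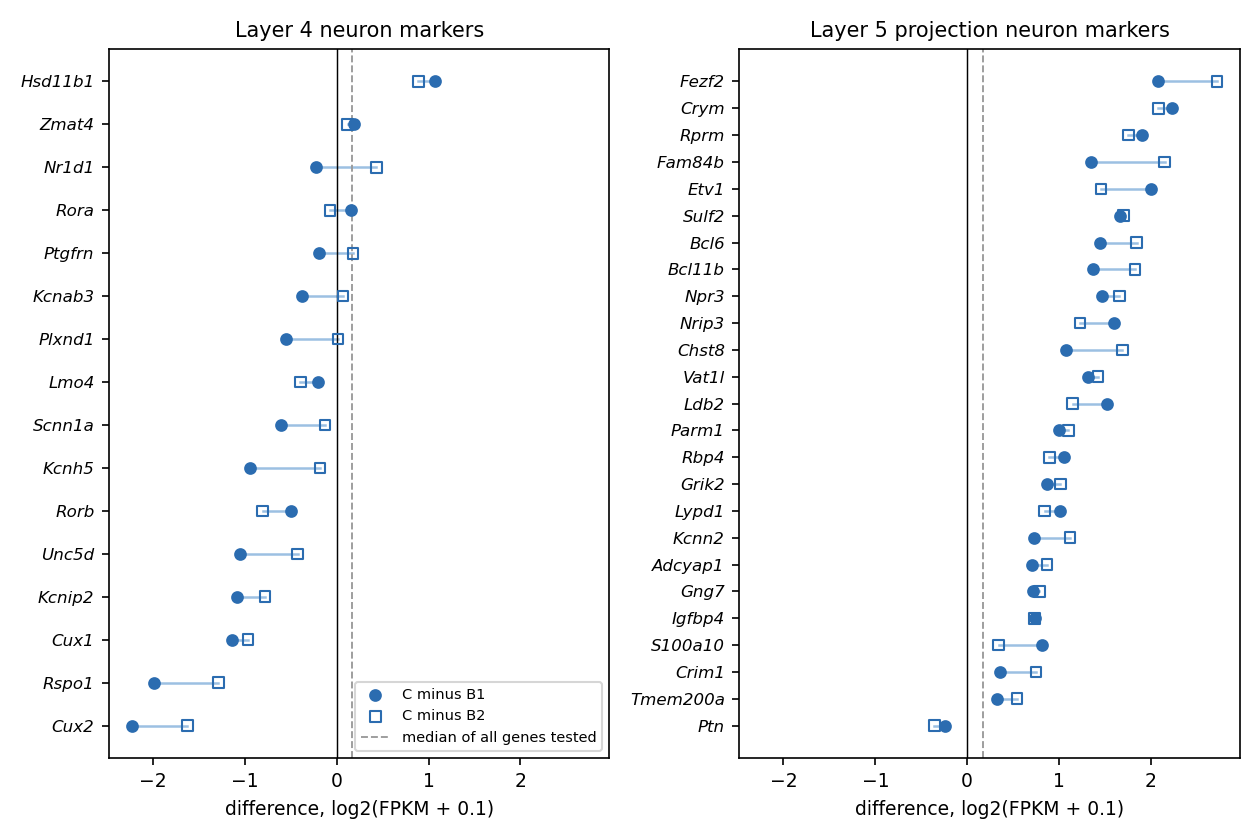
Difference of C to B1 (filled) and to B2 (open) on the log2(FPKM + 0.1) scale for the tested layer 4 markers (left, 16 genes) and layer 5 projection neuron markers (right, 25 of 26 genes), 1 gene per row. The dashed line marks the median of all genes tested, 0.17, and layer 5 markers other than Ptn lie to the right of 0 while layer 4 markers lie on both sides.

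Layer 5 projection neuron markers were set apart in nearly 1 direction. Of 37 genes on the list 35 are in the files used and 26 were tested. Of these 23 were higher in C (88.5%, against 27.2% of all genes), 1 lower and 2 neither. After rescaling 22 were higher and 1 lower, and the median of the 26 lay 1.02 above that of all genes on the log2 scale. C held the highest level of the 7 libraries for 15 of them and D for 5, while 13 reached 2-fold, against 1.17% of all genes. This list was also written with earlier results of these data known, and it holds Fezf2 and Crym, named above for their size. Its counts are thus a description only. Pcp4 and Pou3f1 are not analysed here.

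Of the transcription factors on this list, Bcl11b was at 4.97 FPKM in B1, 3.59 in B2, 13 in C and 19.5 in F, 2.59-fold higher in C than in B1. Etv1, a factor of layer 5 neurons that project within the telencephalon, was at 1.83, 2.70 and 7.60 FPKM in B1, B2 and C, and at 5.36 in D and 2.0 in E. Bcl6, a repressor, was at 3.88, 2.93 and 10.8 FPKM and at 4.04 in E. Ldb2, a cofactor of LIM factors, was at 8.96, 11.6 and 25.8 FPKM. These factors belong to the set at least 2-fold apart, whose rule already requires that the interval of C overlap neither layer 4 interval.

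Secreted, surface and enzyme genes of the list behaved alike. Sulf2, an extracellular sulfatase, was at 15.9, 15.5 and 50.7 FPKM in B1, B2 and C, and Npr3, the clearance receptor of natriuretic peptides, at 1.38, 1.2 and 4.00. Rprm, a cell cycle inhibitor, was at 4.67, 5.20 and 17.8 FPKM but at 134 in E, so its highest level was in layer 6. Nrip3 (15.1, 19.6 and 46.0), Vat1l (6.04, 5.6 and 15.2), Chst8 (3.61, 2.33 and 7.73) and Fam84b (0.920, 0.483 and 2.49) also reached 2-fold. Fam84b had the widest gap between the layer 4 libraries of these, 0.81 on the log2 scale.

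The list also holds genes set apart by less. Parm1 stood just under 2-fold. Rbp4 (7.45, 8.35 and 15.6 FPKM), Grik2 (4.82, 4.34 and 8.87), Lypd1 (5.33, 5.98 and 10.8) and Igfbp4 (33.8, 33.8 and 56.3) were 1.66-fold to 1.86-fold higher in C than in the nearer layer 4 library. Kcnn2 (6.90, 5.24 and 11.5), Gng7 (17.7, 16.9 and 29.2), Adcyap1 (8.02, 7.17 and 13.2) and Tmem200a (5.33, 4.59 and 6.72) were set apart as well. Crim1 (7.66, 5.81 and 9.84) and S100a10 (25.2, 35.0 and 44.4) were above both layer 4 libraries by less than their gap, and Ptn, a heparin-binding growth factor, was lower in C (123, 134 and 105).

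Layer 2/3 markers were lower in C more often than layer 4 markers, at 58.3% against 37.5% of those tested, beside 6.52% of all genes. Their median lay 0.87 below that of all genes on the log2 scale, against 0.51 for layer 4 markers. Of 12 tested, 7 were lower in C and 2 higher, unchanged in number after rescaling, and 5 reached 2-fold, against 0.535% of all genes lower by that much. The list was written with earlier results of these data known, and the 5 include Ddit4l, Stard8 and Inhba, named above for their size. These counts are thus a description only. Rasgrf2, an exchange factor for Ras, was at 49.7 FPKM in B1, 49.3 in B2 and 16 in C, and Lamp5, a vesicle-associated membrane protein, at 219, 239.6 and 124. The layer 4 libraries therefore held more of these upper-layer transcripts than upper layer 5, and as A stood at 39.9 and 258 FPKM, tissue of layer 3 in the layer 4 segments and expression by layer 4 cells cannot be told apart. Of the 13 tested layer 6 and 6b markers, 8 were higher in C (61.5%, against 27.2% of all genes) and 2 lower (15.4%, against 6.52%). After rescaling 6 were higher (46.2%, against 14.6%) and 3 lower (23.1%, against 13.6%). With the GC trend removed the counts were 5 and 3. Besides Sema3e, Ighm, the immunoglobulin mu chain, was at 2.35, 4.60 and 11.7 FPKM, and the subplate gene Ccn2 at 0.634, 0.794 and 1.51. Nxph4, a neurexophilin of layer 6b, was at 0.0547, 0.0555 and 0.163 FPKM, low in all 3 libraries beside 41.3 in F. Ppp1r1b went the other way, at 81.9, 57.1 and 36.2 FPKM.

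Markers of cells other than neurons also moved with the comparison. Of 15 oligodendrocyte markers, all tested, 11 were set apart as higher in C (73.3%, against 27.2% of all genes) and none as lower. After rescaling 10 were higher (66.7%, against 14.6%) and 0 lower. The median of the 15 markers as deposited lay 0.72 above that of all genes on the log2 scale. Their summed level was 916 FPKM in B1, 941 in B2, 1770 in C and 2370 in D, and none was at 0. Mbp, the myelin basic protein, was at 459.7, 469 and 922 FPKM in B1, B2 and C. Mobp (62.1, 85.4 and 165), Ugt8a (3.92, 3.61 and 8.69) and Aspa (1.85, 2.20 and 4.70) were higher too, the last 2 by at least 2-fold. In bulk tissue more oligodendrocytes and more RNA per oligodendrocyte cannot be told apart, and the part of these cells in the other differences was not tested. The markers summed to 13200 FPKM in F. Of the 117 genes higher in C, 35 had their highest level in F, a share near that of all genes (3344 of 11409 tested).

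Markers of the other cell types gave smaller numbers as deposited. Of all genes tested, 27.2% were higher and 6.52% lower, and 14.6% and 13.6% after rescaling. Of 7 oligodendrocyte precursor markers none was lower and 2 were higher (1 after rescaling). These were Pdgfra (2.11, 1.98 and 4.04 FPKM in B1, B2 and C) and Gpr17 (4.71, 3.96 and 6.34), and Olig1 (31.5, 19.96 and 36.5) was not set apart. With the GC trend removed, 5 of the 7 were higher and 0 lower. Their median gap between B1 and B2 was 0.65 on the log2 scale, which makes the rule harder to meet. Of 10 microglia markers 4 were higher and none lower, as for P2ry12 (3.01, 2.92 and 5.25), Ctss (10.1, 12.3 and 18.1) and Cx3cr1 (6.96, 6.83 and 8.43). After rescaling the microglia counts were 4 and 1. Of 13 astrocyte markers 2 were higher and 1 lower, and 0 and 3 after rescaling, with Aqp4 at 9.54, 8.33 and 11.2 FPKM and Gja1 at 38.5, 39.3 and 44.9. Sox9 was at 7.77, 7.30 and 6.65 FPKM.

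Endothelial and mural markers were lower in C at 3 of 10 and higher at 1 (6 and 0 after rescaling). Cldn5, a tight junction protein of vessels, was at 29.5, 22.8 and 17.3 FPKM in B1, B2 and C, Esam at 5.95, 6.02 and 4.84 and Kcnj8 at 0.886, 0.913 and 0.711. Kdr (1.57, 1.56 and 1.73) turned to a difference of -0.04 on the log2 scale after rescaling. Of 2 leptomeningeal markers tested, Islr was higher (0.618, 0.635 and 1.22) and Ptgds (74.6, 101 and 133) was not set apart, and of 4 blood markers none was, with Hba-a2 at 52.6, 70.4 and 58.6 FPKM. Interneuron markers were higher at 4 of 14 (28.6%, against 27.2% of all genes) and lower at 3 (21.4%, against 6.52%). After rescaling the counts were 2 and 3. Gad1, which makes GABA, was at 44.96, 45.3 and 67.7 FPKM, Gad2 at 12.4, 13.9 and 18.9, Reln at 4.43, 3.46 and 6.05 and Calb2 at 4.01, 3.36 and 2.55.

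Pan-neuronal markers divided, with 4 of 12 higher and 3 lower (3 and 4 after rescaling). Nrgn, a calmodulin-binding postsynaptic protein, was at 2958 FPKM in B1, 2330 in B2 and 1375 in C, and the nuclear protein Rbfox3 at 263, 217 and 147. In contrast the synaptotagmin Syt1 was at 309, 336 and 454 FPKM and Map2, a dendritic microtubule protein, at 110.0, 101 and 146. Striatal markers were lower at 3 of 5 and higher at 1 (4 and 1 after rescaling). Penk was at 9.75, 10.9 and 5.15 FPKM, Pde10a at 9.99, 10.1 and 9.75 and Drd1 at 0.874, 0.905 and 1.78.

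**Figure D4:**
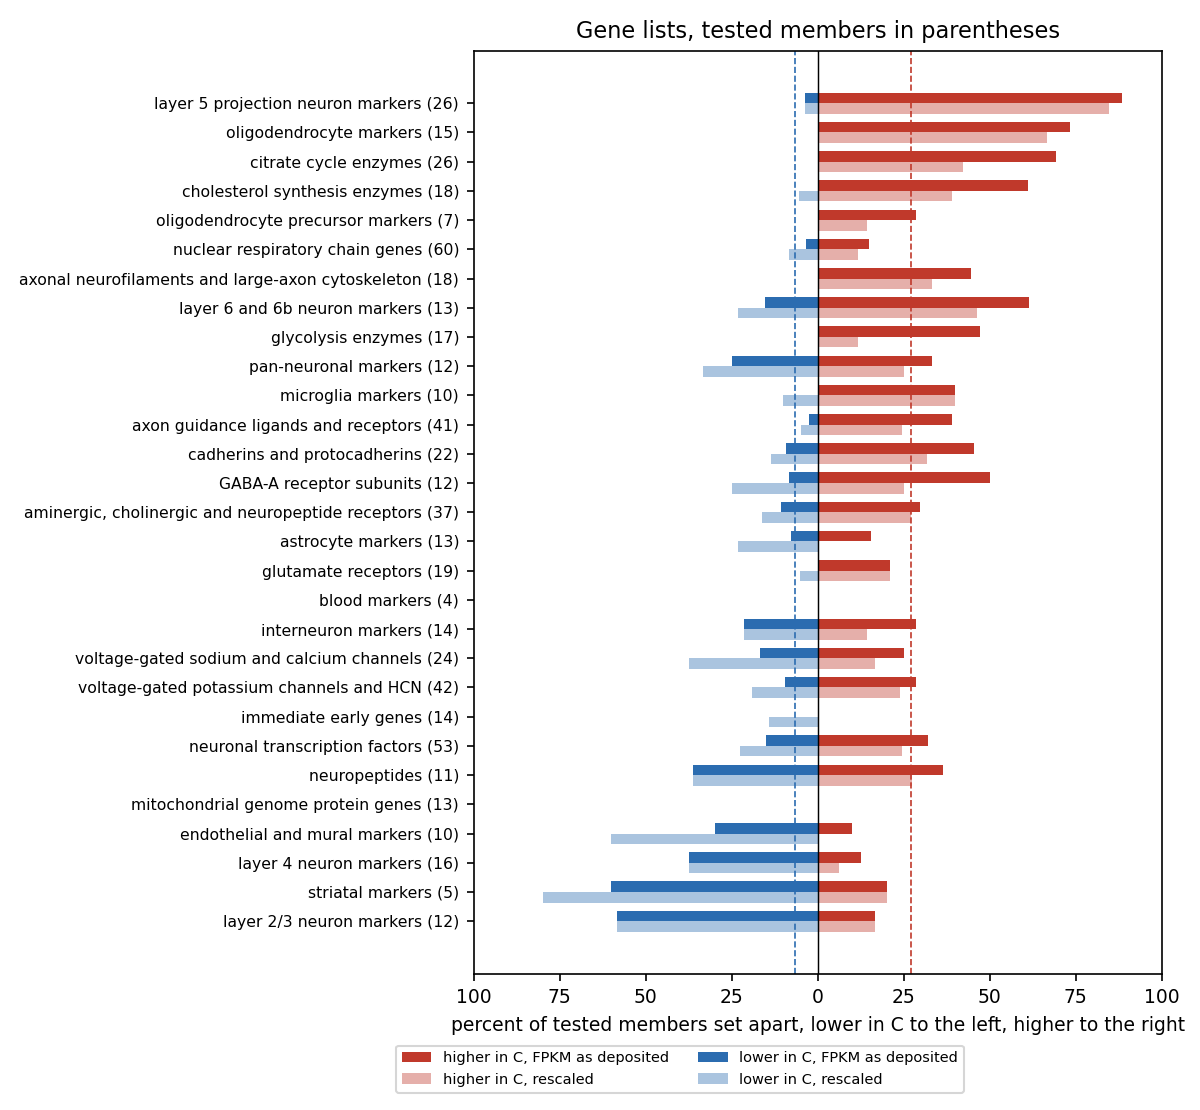
Percent of the tested members of each list (number in parentheses, lists with at least 4) that were set apart as higher in C (right, red) or lower (left, blue), with FPKM as deposited (dark) and with rescaled libraries (pale). Dashed lines mark all genes tested, 27.2% higher and 6.52% lower, and the lists run from the highest median difference (layer 5 markers) to the lowest (layer 2/3 markers).

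Large neurons with long axons depend on neurofilaments and a wide set of channels. Of 18 tested axonal cytoskeleton genes 8 were higher in C (44.4%, against 27.2% of all genes) and none lower, and 6 (33.3%, against 14.6%) and 0 after rescaling. Nefh, the heavy neurofilament subunit, was at 22.6 FPKM in B1, 22.3 in B2, 51.6 in C and 46.5 in D, 2.28-fold higher in C than in B1. Nefl (146, 143 and 199.7 FPKM) and Ina (76.6, 77.5 and 104) were higher by less, 1.36-fold and 1.34-fold. Dnm1, the most abundant gene of the list, was at 724, 474 and 614 FPKM and was not set apart.

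Of 42 potassium and HCN channel genes tested, 12 were higher in C and 4 lower, and 10 and 8 after rescaling. The share higher, 28.6%, was near the 27.2% of all genes tested. With the GC trend removed 11 were higher and 11 lower. Kcng1, a silent subunit that modifies Kv2 channels, was at 2.5, 2.49 and 8.68 FPKM in B1, B2 and C, 3.37-fold above the nearer layer 4 library, beside Kcnh4, which was lower. Kcna6 was at 15.6, 19.6 and 34.0 FPKM, and Kcnab2, the most abundant, at 158, 109.5 and 133. Sodium and calcium channels were higher at 6 of 24 and lower at 4, and 4 and 9 after rescaling, so that their balance turned with the scale. Removal of the GC trend gave 4 and 8. Scn4b, a subunit that supports resurgent sodium current, was at 25.2, 19.3 and 46.2 FPKM, Cacna2d2 at 5.45, 3.86 and 9.44 and Scn1a at 27.3, 27.7 and 41.5. Cacna1g, a T-type calcium channel, was lower, at 18.0, 17.0 and 11.3 FPKM.

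Of 19 glutamate receptor genes 4 were higher (21.1%, against 27.2% of all genes) and none lower (4 and 1 after rescaling). With the GC trend removed 4 were higher and 5 lower. Besides Grik2 the genes higher as deposited included Grik3 (6.22, 3.85 and 11.7 FPKM in B1, B2 and C) and Gria3 (32.8, 39.9 and 58.2), while Gria1 (87.1, 73.4 and 96.8) was not set apart. Of 12 GABA-A receptor subunits 6 were higher and 1 lower, and 3 and 3 after rescaling, so 50.0% were higher as deposited against 27.2% of all genes, and after it 25% were higher and 25% lower against 14.6% and 13.6%. Removal of the GC trend gave 2 higher and 4 lower. Gabra5, the subunit of extrasynaptic receptors on pyramidal dendrites, was at 12.2, 14.1 and 23.3 FPKM, Gabrg3 at 2.51, 2.38 and 4.18 and Gabrg1 at 2.67, 2.66 and 4.31. Gabrd, another extrasynaptic subunit, was lower in C, at 49.7, 49.0 and 33.8.

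Of 37 aminergic, cholinergic and neuropeptide receptors 11 were higher in C and 4 lower, and 10 and 6 after rescaling. The share higher was 29.7%, against 27.2% of all genes, and 27.0% after rescaling, against 14.6%. With the GC trend removed the counts were 11 higher and 9 lower. Rxfp1, the relaxin receptor, was at 0.0987 FPKM in B1, 0.168 in B2 and 0.879 in C, the somatostatin receptor Sstr4 at 5.03, 4.52 and 13.9, the serotonin receptor Htr1f at 0.717, 0.636 and 1.84 and the nicotinic subunit Chrna4 at 4.83, 4.42 and 11.1. Each was at least 2-fold higher in C and was higher still in D. Chrm1, the most abundant, was at 58.5, 42.3 and 37.9 FPKM and was not set apart. Of 11 neuropeptide genes 4 were higher and 4 lower (3 and 4 after rescaling), 36.4% each against 27.2% and 6.52% of all genes. Grp was at 0.722, 0.890 and 2.05 FPKM and Pdyn at 7.93, 6.59 and 15.4, whereas Cck stood at 436, 398 and 359. Nmb is listed at 0 in C and stood at 1.11 FPKM in B1 and 1.47 in B2.

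Of 41 axon guidance genes 16 were higher in C (39.0%, against 27.2% of all genes) and 1, Robo3, lower, and 10 (24.4%, against 14.6%) and 2 after rescaling. Removal of the GC trend gave 12 higher and 7 lower. Beside Sema3e, its co-receptor Nrp1 was at 2.36 FPKM in B1, 2.5 in B2 and 5.79 in C, and Sema5a at 1.23, 1.26 and 2.22. Sema7a, the most abundant, was at 119, 77.9 and 82.1 FPKM. Of 22 cadherins and protocadherins 10 were higher (45.5%) and 2 lower, and 7 (31.8%) and 3 after rescaling. With the GC trend removed 3 were higher and 4 lower, so their excess of higher genes was lost. Cdh9 was at 0.660, 0.937 and 2.73 FPKM, Cdh18 at 3.61, 3.29 and 6.63 and Pcdh19 at 3.35, 3.30 and 5.63, and Pcdh20 was lower, at 12.1, 8.44 and 3.85. Pcdh1 (79.2, 38.0 and 47.3 FPKM) differed most between the layer 4 libraries. Of 53 neuronal transcription factors 17 were higher (32.1%) and 8 lower (15.1%, against 6.52% of all genes), and 13 (24.5%) and 12 (22.6%) after rescaling. Removal of the GC trend gave 12 and 13.

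Of 26 citrate cycle enzymes 18 were higher and none lower, against 27.2% of all genes, and 11 and 0 after rescaling, against 14.6%. Dld, the dehydrogenase shared by the oxoacid complexes, was at 25.9 FPKM in B1, 33.5 in B2 and 57.8 in C, Idh3a at 53.0, 62.7 and 103, Idh1 at 7.60, 7.86 and 13.4, Sdha at 98.0, 92.7 and 153 and Mdh1 at 187, 247 and 337. None of the list reached 2-fold. Nuclear genes of the respiratory chain were higher at 9 of 60 and lower at 2, and 7 and 5 after rescaling, below the share of all genes that were higher. Even so, the median difference of the list lay 0.27 above that of all genes on the log2 scale. Its median gap between B1 and B2, 0.61, was wider than that of all genes, which makes the rule harder to meet. Ndufs1 was at 25.5, 31.6 and 52.3 FPKM, Atp5j at 77.4, 95.2 and 156, Uqcrc2 at 46.1, 61.6 and 89.7, Ndufb6 at 30.4, 30.7 and 44.2 and Cox4i1 at 408, 556 and 549.9.

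None of the 13 protein genes of the mitochondrial genome was set apart, and the layer 4 libraries themselves differed by a median of 1.79 on the log2 scale. mt-Cytb was at 4393 FPKM in B1, 11413 in B2 and 6024 in C. Of 17 glycolysis enzymes 8 were higher (47.1%, against 27.2% of all genes) and none lower, but only 2 (11.8%, below the 14.6% of all genes) and 0 after rescaling. Gpi1 was at 40.0, 41.1 and 57.6 FPKM, Aldoa at 203, 273 and 370.4, Pkm at 122, 122 and 159 and Pfkm at 116, 103 and 147, whereas Aldoc (387, 344 and 352) was not set apart. Of 18 cholesterol synthesis enzymes 11 were higher (61.1%) and none lower, and 7 (38.9%) and 1 after rescaling. Sqle, the squalene epoxidase, was at 12.9, 12.3 and 21.5 FPKM, Hsd17b7 at 5.04, 3.98 and 8.15 and Sc5d at 8.95, 11.3 and 16.9. The cholesterol enzymes were highest in F at 17 of 18, as were all 15 oligodendrocyte markers, and the part of myelin-forming cells in these counts was not tested.

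Immediate early genes were not set apart at any of 14 members, and 2 were lower after rescaling. Homer1 was at 68.9, 61.5 and 68.0 FPKM in B1, B2 and C. The median gap of these genes between the layer 4 libraries was 0.83 on the log2 scale.

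The other S1 libraries show where the 2-fold genes stood beyond the segments compared. Lower layer 5 was above both layer 4 libraries at 113 of the 117 higher genes and below both at 42 of the 44 lower ones, against 52.6% and 17.3% of all genes tested. These counts set D against B1 and B2 values that chose the genes, so they are a description only. D and A were not used by the 2-fold rule. They did enter the interval limit that chose the genes tested, as did all S1 libraries. The comparison of D with A is thus not independent of the selection, and it too is a description only. D was above A at 110 of the 117 (94.0%), against 67.2% of all genes tested, and below A at 41 of the 44 (93.2%), against 32.2%. The median difference D minus A was 2.38 and -1.68 on the log2 scale for these sets and 0.44 for all genes. These are counts in single libraries, with no test, and A, C and D were pooled from the same mice.

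The peak lay elsewhere for most of the genes. Of the 117 higher genes 38 were highest in C, 22 in D, 20 in E, 35 in F and 2 in A. Of all 11409 genes tested, 979 were highest in C, 957 in D, 1989 in E, 3344 in F and 2108 in A. Of the 44 lower genes 19 were highest in A, 21 in B1 or B2 and 4 in E or F. Most of the higher genes, like most of all genes tested, thus had their highest level below C. Their shares in E and F were near those of all genes, and their shares in C and D were larger. By the rule that chose them none could peak in B1 or B2, where 1572 and 460 of all genes tested were highest. The larger share in C is thus partly set by that choice. In the same way none of the 44 lower genes could peak in C. The lower genes were divided between those highest in the layer 4 libraries, such as Rspo1, and those highest above them, such as Inhba and Myh7.

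**Figure D5:**
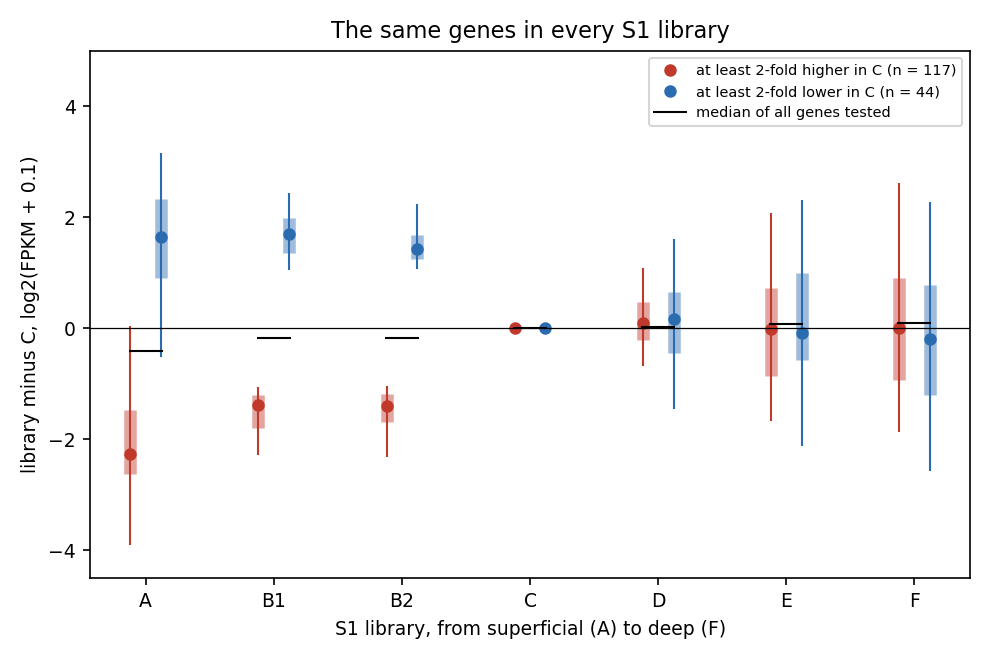
Level in each S1 library minus that in C, log2(FPKM + 0.1), for the 117 genes at least 2-fold higher in C (red) and the 44 lower (blue), with medians (points), quartiles (bars) and the 5th to 95th percentiles (lines), and the median of all genes tested (dashes). B1, B2 and C were used to choose the genes by size, and all S1 libraries entered the interval limit. In D the medians were 0.09 and 0.16, and in A they were -2.26 and 1.64.

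Isoforms of 1 gene could differ in direction. Of 13901 tested transcripts that were assigned to a gene, 2787 were set apart as higher in C and 672 as lower, each with an interval in C that overlaps neither layer 4 interval. At 56 of 1798 genes with at least 2 tested isoforms (3.11%), isoforms were set apart in opposite directions, and 40 of the 55 that were also tested as genes were not set apart as genes. At 38 of the 56 genes such an isoform is listed at 0 in a library. This includes the 5 with the largest smaller difference, Rabac1, Glmn, P2ry14, Iqcd and 1810062O18Rik. Rabac1 has 2 models of 822 nt each, and all of its level is on 1 model in B1 and B2 (135 and 99.2 FPKM) and on the other in C (126 FPKM), while in D, E and F it is all on the first. The 4 others are low, with no such isoform of P2ry14, Iqcd or 1810062O18Rik above 0.691 FPKM in B1, B2 or C. Glmn had 1 isoform at 0.174 FPKM in B1, 0 in B2 and 2.99 in C and another at 1.37, 3.08 and 0.189.

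At 18 genes every such isoform is listed in all 3 libraries. The isoform pair of Camk2b, a calcium/calmodulin-dependent kinase subunit, was chosen after its values were seen, as the most abundant but for Atp5d. Its 3999 nt transcript was at 85.9 FPKM in B1, 85.5 in B2 and 121 in C, and its 3328 nt transcript at 89.2, 63.3 and 37.3. The longer one thus made up 49.1% and 57.5% of the tested isoforms in B1 and B2 and 76.5% in C. In Atp5d, a subunit of ATP synthase, the 582 nt transcript was at 91.0, 93.1 and 109 FPKM and the 781 nt transcript at 137, 125 and 106. At 12 of the 18 genes the longest of these isoforms was among those higher in C and at 6 among those lower. Insert length also differed between the libraries, and its part in the shares of isoforms was not tested.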

How the data were processed

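S1 segments were sequenced as polyadenylated RNA, paired-end, with 50 nt of each read used. The authors mapped reads to mm9 with TopHat 1.0.13 and estimated FPKM of Ensembl release 57 genes and transcripts, with 95% intervals, with Cufflinks 0.8.3, as deposited. The coverage signal the authors deposited for transcripts served here only to estimate depth. Features without an entry were set to 0, and repeated entries of a gene (7 to 13 genes a library) were summed.

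Genes and transcripts were tested where the widest 95% interval over the 7 libraries was at most 50% of the mean FPKM. The limma 3.58.1 moderated test (R 4.3.3) on log2(FPKM + 0.1), with Benjamini-Hochberg adjustment, was tested on simulated data. Isoforms were assigned to genes by identifier (39564 transcripts) or as the only gene of a locus (4396), and 2971 stayed out. GC content came from GENCODE M21 by identifier, for 94.7% of tested genes. Symbols matched 22021 genes.

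The 14 genes per direction with the largest difference, a symbol and a mean of at least 1 FPKM were named, with all tested layer 4 and 5 markers, up to 4 set-apart members and the most abundant member of each other list, the 5 isoform genes and the 2 genes on each side of 2-fold. The genes described, the 30 lists (written by hand) and the limits were chosen with earlier results of these data known, as were 80 alternatives, and 12 were added after seeing the data. The authors' own assembled models were not used. Some genes that this rule names are not reported here.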

Additional observations from a re-analysis of the deposited data

How the results depend on the processing

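The set-apart rule needs both layer 4 libraries, and limma without either has no residual degree of freedom, so those alternatives could not be fitted. No paired analysis was possible because only layer 4 has replicate numbers. For genes set apart, higher in C or lower (genes set apart, lower in C), rescaling by the median of ratios gave 1671 higher and 1551 lower, rescaling to genes outside the mitochondrial genome 2066 and 1262, removal of the GC trend 1838 and 1873, and both the first and the last together, chosen after seeing the data, 1779 and 1862. Among genes at least 2-fold apart, a pseudocount of 1 gave 63 higher and 33 lower, and one of 0.01 gave 135 lower. An interval limit of 25% gave 76 higher and 35 lower, and 457 set apart as lower, with fewer genes tested. Limits of 1.5-fold gave 562 and 176 and of 3-fold 34 and 28. Without B1 or without B2 there were 282 to 602 genes at least 2-fold higher and 149 to 250 lower, 602 and 250 of them without B2, since a single layer 4 library then decides. Limma called 7 higher and 10 lower with no interval limit, 4 and 2 with the GC trend removed, and 2 and 6 with D added to C, also when rescaled or with a trend in the prior variance (both added later), and every called gene is listed at 0 in a library. An interval limit of 100% gave 110 genes with opposite isoforms. Of the genes named here, Zmat4 (-0.0016 on the log2 scale rescaled, -0.08 with the GC trend removed) and Kdr (-0.04 and -0.06) turned direction. The cause was not tested.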

Other observations

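Related genes stood on opposite sides of the comparison in the R-spondin and cerebellin families, as did genes of myosin subunits. These genes were chosen after their values were seen, all were at least 2-fold apart, and no explanation was tested. Of the R-spondins, Rspo1 was lower in C as given above, and Rspo2 was at 0.870 FPKM in B1, 1.18 in B2 and 3.73 in C, and at 8.80 in F. Of the cerebellins, secreted organisers of synapses, Cbln4 was at 11.8, 8.08 and 3.68 FPKM and Cbln1 at 0.417, 0.295 and 1.00. Myosin light and heavy chains are subunits from separate gene families. The light chain Myl4 was higher in C (8.75, 22.3 and 73.1 FPKM) where the heavy chains Myh7 and Myh7b were lower. B1 and B2 differed at Myl4 more than at either heavy chain.

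Trbc2 and Ighm, both constant-region genes of lymphocyte receptors, are given as single genes chosen after their values were seen. Trbc2, of the T cell receptor beta chain, was at 3.44, 4.65 and 13.3 FPKM in B1, B2 and C, and at 19.3 in D and 33.7 in E, beside Ighm at 42.3 in D and 76.6 in E. Both stood at 0.752 and 2.14 FPKM in A.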
